A study of Mus musculus with 47 samples.

Results

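The 35 genes described here build and service the autophagosome and the lysosome in mouse skeletal muscle. They were taken by symbol: the rows of a table of 13500 genes were matched through their Ensembl IDs, and all 35 listed symbols were found. All 35 were tested, since each had 3 or more libraries with at least 1 FPKM (fragments per kilobase of gene, scaled to library size), the filter that left 12000 genes. None was listed at 0 in any library.

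The 47 libraries came from 47 female C57BL/6 mice, each giving 1 sample of tibialis anterior, a shin muscle made mainly of fast fibres. RE-RE ADX and RE-RE sham mice (ages 8 to 18 and 9 to 14 weeks) carried Bmal1(stopFL/stopFL) together with 1 transgene for each of 2 Cre drivers, Syt10-Cre(-/tg) and, for skeletal muscle, Hsa-Cre(-/tg). Their blocked Bmal1 gene, which encodes a core clock activator, is restored only where a driver is active, in brain (Syt10-Cre) and skeletal muscle. ADX mice had both adrenal glands removed, and sham mice had the surgery without removal. Wild-type (WT) mice were WT ADX+DEX (dexamethasone, a synthetic glucocorticoid, 5 mg/kg, ages 11 to 14 weeks), WT ADX+ADR (adrenaline, 0.5 mg/kg, ages 13 to 14 weeks), WT ADX without injection (ages 12 to 17 weeks) and WT sham (ages 9 to 12 weeks). Operated mice were given saline with glucose against the loss of aldosterone. Muscle was taken at ZT12 or at ZT0, where ZT counts hours from lights on. There were 4 libraries in each of the 12 groups but 3 in WT ADX at ZT0. Hormones were injected into the abdomen at ZT12 for 10 days. A recovery of 2 weeks is recorded for the treated mice too, so how long before collection the last dose was given is not clear from the protocol. No vehicle-injected group was analysed here, so injection and hormone cannot be told apart.

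Autophagy wraps cell contents in a double membrane, the autophagosome, and delivers them to the lysosome for breakdown. The ULK1 kinase complex starts the process, a lipid kinase complex marks the membrane, and a pair of ubiquitin-like systems attach ATG8 proteins (the LC3 and GABARAP families) to it. Receptors such as SQSTM1 and BNIP3 tie cargo, including damaged mitochondria, to the ATG8 proteins, and the transcription factor TFEB drives many of the genes. In skeletal muscle the process is induced by fasting and by glucocorticoids, with FOXO factors among its drivers, and it contributes to loss of muscle mass. All values below are levels of messenger RNA, and neither protein nor autophagic flux was measured.

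Promoter windows of 300 bases, from 250 before to 50 after the RefSeq gene start, were at hand for 27 of the 35 genes (all but Map1lc3a, Bnip3l, Rb1cc1, Becn1, Pik3c3, Atg12, Atg16l1 and Ctsb). The E-box, searched as CACGTG on both strands (its own reverse complement), was of interest because BMAL1 with CLOCK, and TFEB, bind such motifs. It was in 8 of these 27 promoters (29.6%): Bnip3, Atg5, Atg7, Atg14, Ctsl, Ctsd, Lamp1 and Tbk1. Of all 32851 windows, 7.15% held it. The FOXO core TGTTTAC was in 0 of the 27 and in 3.65% of all windows, and the D-box TTANGTAA was in 0 of the 27 and in 2.32% of all windows. The glucocorticoid receptor motif TGTTCT was in 3 of the 27 (Atg5, Optn and Lamp2) and in 19.0% of all windows. These motifs were chosen with the genes' results known. The 4 windows below belong to genes that recur in the results and hold an E-box, shown in capitals. They are RefSeq sequences of the GRCm38.p6 build, 5′ to 3′ on the gene's strand: Lamp1 at chr8:13158911-13159210 (plus), Ctsd at chr7:142387778-142388077, Ctsl at chr13:64370471-64370770 and Bnip3 at chr7:138909457-138909756 (all minus).
Lamp1: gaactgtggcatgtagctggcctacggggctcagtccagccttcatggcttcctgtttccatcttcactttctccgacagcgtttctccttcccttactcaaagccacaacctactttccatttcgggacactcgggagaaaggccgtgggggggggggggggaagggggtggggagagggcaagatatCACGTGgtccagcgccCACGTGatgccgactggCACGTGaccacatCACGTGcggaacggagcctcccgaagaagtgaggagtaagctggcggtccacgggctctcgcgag
Ctsd: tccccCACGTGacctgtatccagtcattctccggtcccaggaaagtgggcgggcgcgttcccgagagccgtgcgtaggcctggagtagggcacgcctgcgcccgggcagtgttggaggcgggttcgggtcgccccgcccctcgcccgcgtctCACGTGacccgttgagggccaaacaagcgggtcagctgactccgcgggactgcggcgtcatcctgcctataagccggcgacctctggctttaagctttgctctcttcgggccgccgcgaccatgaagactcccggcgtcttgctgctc
Ctsl: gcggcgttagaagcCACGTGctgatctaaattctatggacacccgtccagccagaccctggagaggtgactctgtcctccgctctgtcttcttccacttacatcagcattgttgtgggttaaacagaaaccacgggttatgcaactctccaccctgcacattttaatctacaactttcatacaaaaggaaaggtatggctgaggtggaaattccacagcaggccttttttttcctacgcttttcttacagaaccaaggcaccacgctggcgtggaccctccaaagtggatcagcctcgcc
Bnip3: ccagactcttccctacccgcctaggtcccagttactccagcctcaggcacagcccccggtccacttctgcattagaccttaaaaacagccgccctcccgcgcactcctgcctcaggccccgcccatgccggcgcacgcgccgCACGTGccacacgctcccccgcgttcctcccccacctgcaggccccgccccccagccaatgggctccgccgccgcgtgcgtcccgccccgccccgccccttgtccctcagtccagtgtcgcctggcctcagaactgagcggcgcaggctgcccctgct
Lamp1 had 4 E-boxes in a row, beginning 61, 45, 28 and 15 bases before its start. Ctsd had 2, at 245 and 98 bases, Ctsl had 1 at 236 bases, and Bnip3 had 1 at 108 bases. A letter match is a description and not evidence of binding.

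The samples had features that bear on every result. Fast-muscle genes were high throughout, with Mylpf at 4176 FPKM or more and Tnnt3 at 9149 FPKM or more in every library. Bmal1 (Arntl) at ZT0 was 13.4 to 15.2 FPKM in RE-RE sham muscle and 14.2 to 18.8 FPKM in WT sham muscle. Exact zeros occur in abundant genes of this table too, such as the collagen gene Col1a1, listed at 0 in 11 libraries and at up to 212 FPKM in others, so a 0 can be a failed estimate. Library depth, read from the steps between low values, was 16.3M to 35.6M reads. Nnt, a mitochondrial transhydrogenase that is partly deleted in the C57BL/6J substrain, was at 0 in every WT ADX library (7 of 7), and in 2 of the 40 libraries of other groups. Wdfy1 was 0.0575 to 0.622 FPKM in the 7 WT ADX libraries and 1.08 to 5.27 FPKM in the other 40. Both genes were singled out after their values were seen. Substrain and treatment cannot be told apart in any comparison that uses WT ADX. At low levels, 40 libraries shared 28 to 120 exact values with another library of their group, while the other 7 shared 2 or fewer. Whether libraries of a group are independent was not tested, and p-values, which measure only the spread between these samples, may be too small. Tests were made with limma on log2(FPKM + 0.01), adjusted over all 12000 genes by the Benjamini-Hochberg method, and a gene is said to rise or fall at an adjusted p under 0.05.

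The genes differed in level more than they changed. Pink1, the kinase that flags damaged mitochondria, had the highest median over all libraries (397 FPKM), followed by the lysosomal protease Ctsd (228 FPKM), the lysosomal membrane protein Lamp1 (216 FPKM), the cargo receptor Sqstm1 (136 FPKM) and the ATG8 protein Map1lc3a (103 FPKM). Another 21 genes had medians of 10 to 100 FPKM and 9 were lower, down to Atg7 at 1.82 FPKM. Between its highest and lowest group mean a typical gene moved 1.48-fold (the median over the 35). Map1lc3a spanned 4.86-fold, Optn 2.46-fold and Bnip3 2.14-fold, and no other gene exceeded 2-fold. WT ADX+DEX held the highest group mean for 26 of the 35 genes, and WT ADX held the lowest for 16. These counts were not made over all genes, so they do not set the 35 apart. Of all 12000 genes, 66.3% at ZT12 and 68.9% at ZT0 passed the test between these conditions.

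**Figure D1:**
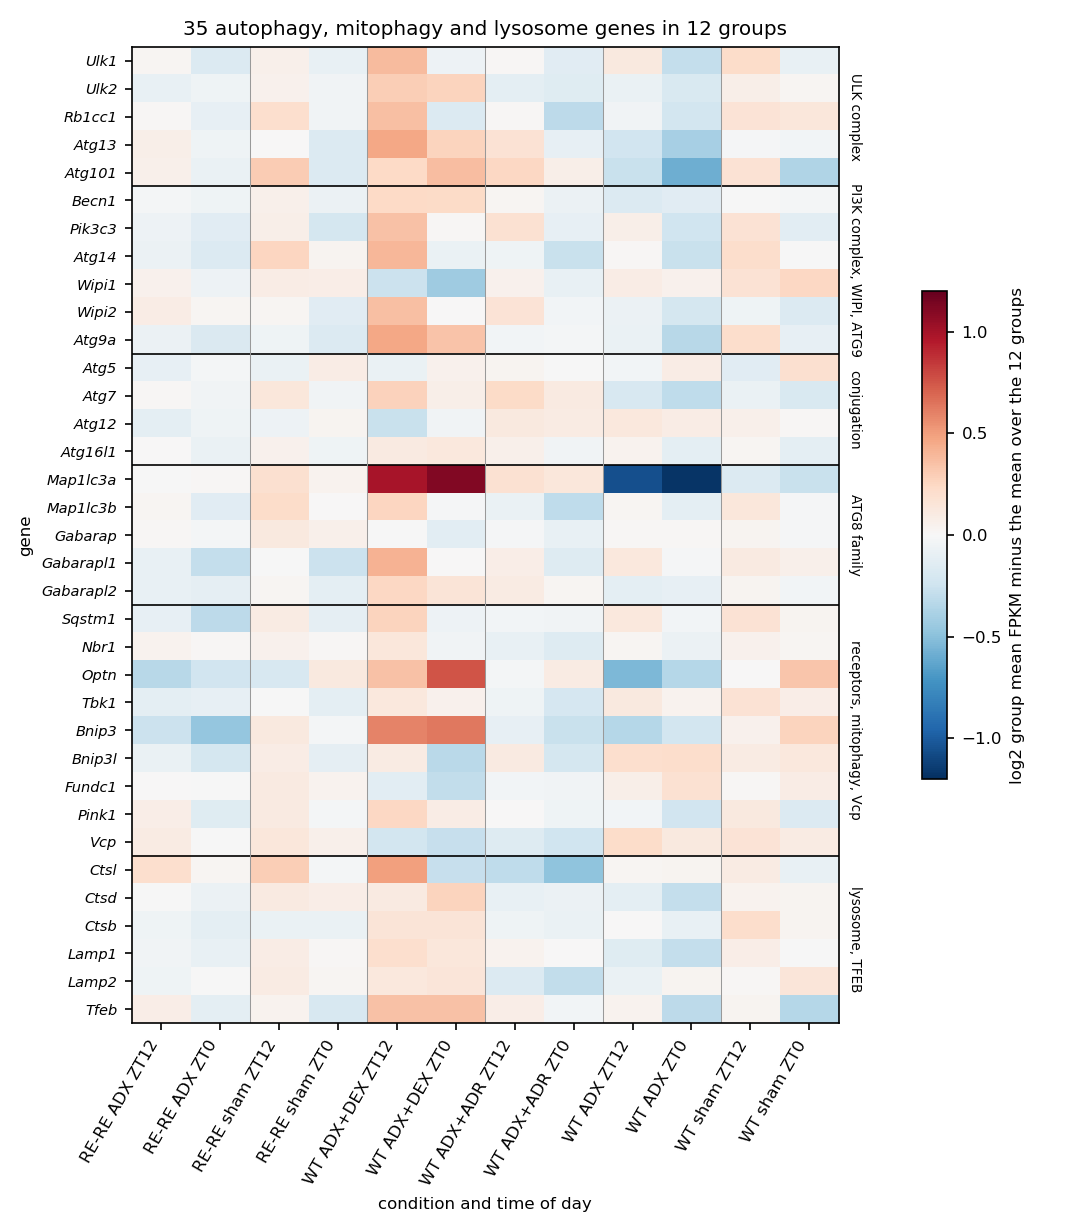
Heat map of the 35 genes (rows, grouped by role) in the 12 groups (columns), coloured by log2 of the group mean FPKM minus the gene's mean over the 12 groups. Map1lc3a stands out in both directions, with group means of 202 and 219.5 FPKM in WT ADX+DEX muscle and 49.0 and 45.2 FPKM in WT ADX muscle at ZT12 and ZT0.

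Dexamethasone and adrenaline were compared between adrenalectomized mice that all received injections, without the WT ADX libraries. At ZT12, 23 of the 35 genes were higher and 2 lower in WT ADX+DEX than in WT ADX+ADR muscle. Of all 12000 genes 42.6% passed the test in either direction, 21.2% as higher and 21.4% as lower. At ZT0, 19 were higher and 3 lower, against 48.6% of all genes in either direction, 25.1% higher and 23.5% lower. The median log2 change over the 35 was 0.22 at ZT12 and 0.16 at ZT0, where that of all genes was 0.00 and 0.03. The libraries of the groups did not overlap in 24 of the 35 genes at ZT12 and in 21 at ZT0. Of all genes, 35.9% at ZT12 and 44% at ZT0 did not overlap. Among genes past the test it was 23 of 25 and 20 of 22, where test and overlap use the same libraries. The changes of Bnip3, Map1lc3a and, at ZT12, Ctsl were the largest of the 35. Those that went down were Wipi1 and Atg12 at both times and Fundc1 at ZT0.

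**Figure D2:**
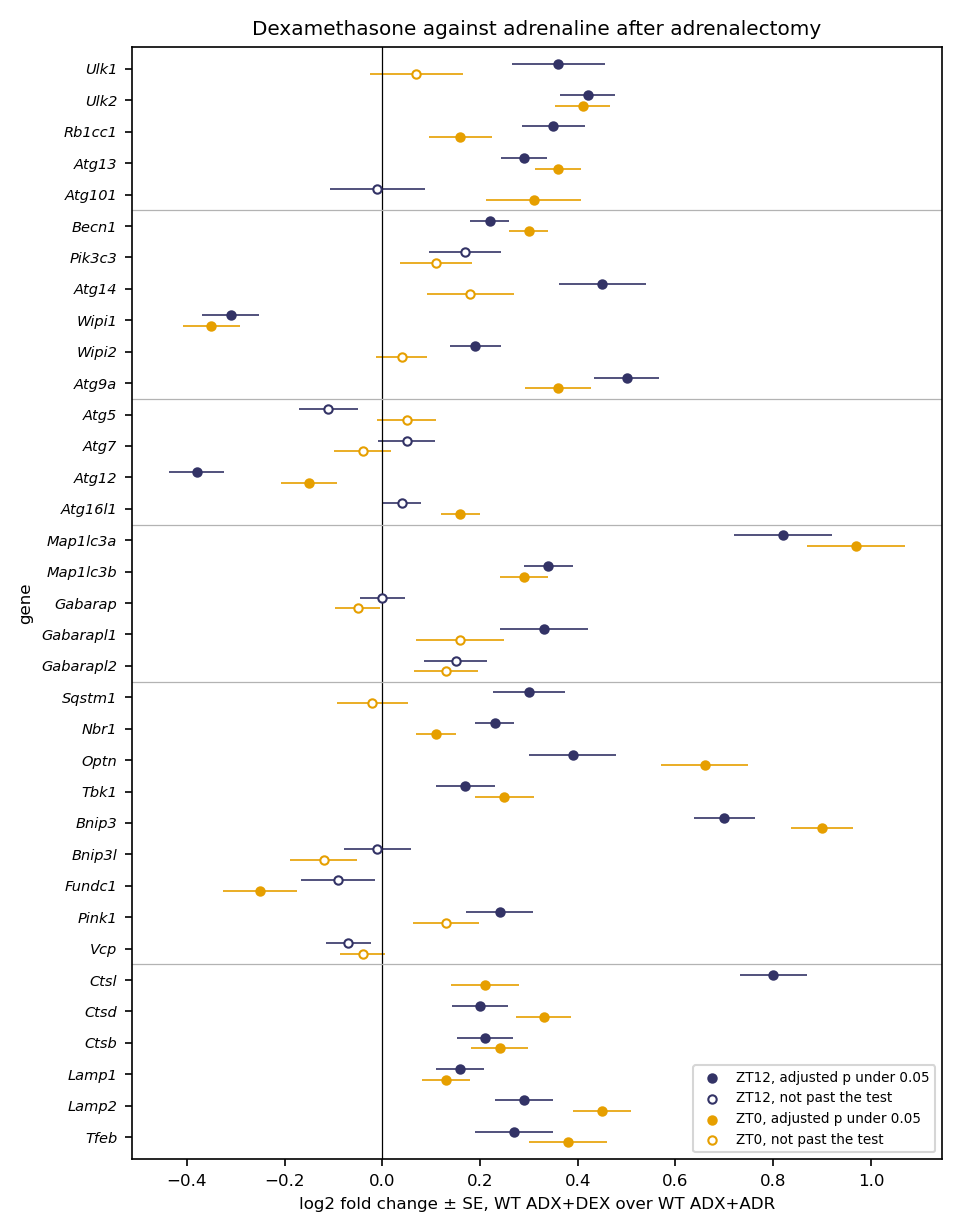
Log2 fold change ± SE of WT ADX+DEX over WT ADX+ADR for each of the 35 genes (rows) at ZT12 and ZT0; filled points have an adjusted p under 0.05. Ctsl at ZT12 (0.80), Map1lc3a and Bnip3 lie farthest to the right, and Wipi1 and Atg12 lie left of 0 at both times.

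Markers of other cell types moved with this comparison. Endothelial markers (8 of 8 measured) summed to 76.6 to 94.0 FPKM in WT ADX+DEX and 158 to 240 FPKM in WT ADX+ADR muscle at ZT12. At ZT0 the sums were 85.3 to 89.1 FPKM in WT ADX+DEX and 137 to 151 FPKM in WT ADX+ADR muscle. Macrophage markers (9 of 11 measured) summed to 19.6 to 25.9 FPKM in WT ADX+DEX and 26.9 to 50.4 FPKM in WT ADX+ADR muscle at ZT12, and to 31.5 to 53.9 and 39.2 to 66.8 FPKM in these conditions at ZT0. Over all 47 libraries, Cldn5 among the endothelial markers was listed at 0 in 2, and among the macrophage markers Cd163 was at 0 in 3, C1qb in 1 and Cd68 in 1. Immediate early and heat shock genes (8 of 8), which respond to stress and handling, summed to 88.7 to 131 FPKM in WT ADX+DEX and 266 to 362 FPKM in WT ADX+ADR muscle at ZT12, and to 105.0 to 121 and 104 to 169.6 FPKM in these conditions at ZT0. Fos was listed at 0 in 10 of the 47 libraries, Fosb and Junb in 6, Egr1 in 5 and Hspa1b in 3. Fibroblast markers (6 of 6) summed to 110 to 141 FPKM in WT ADX+DEX and 108 to 247 FPKM in WT ADX+ADR muscle at ZT12, and to 126 to 140.4 and 222 to 435 FPKM in these conditions at ZT0. Among them Col1a1, Col1a2 and Col3a1 were listed at 0 in 11, 9 and 8 libraries. The part of these differences in the autophagy results was not tested. In bulk muscle, fewer cells of a type and less RNA per cell cannot be told apart.

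Against WT ADX without injection, many of the 35 genes, and many of all genes, differed with either hormone. These comparisons share the WT ADX libraries, so their values are given side by side and not as independent results. With dexamethasone, 25 of the 35 genes were higher and 4 lower than in WT ADX muscle at ZT12, and 19 were higher and 6 lower at ZT0. Across all genes 66.3% passed the test at ZT12 (34.6% higher and 31.7% lower) and 68.9% at ZT0 (36.4% higher and 32.5% lower). With adrenaline, 10 were higher and 4 lower than in WT ADX muscle at ZT12, where 53% of all genes passed (27.7% higher and 25.3% lower). At ZT0 11 were higher and 7 lower, where 51.1% passed (26.8% higher and 24.3% lower). The adrenaline counts, 14 and 18 of 35, are a share below or near that of all genes. The dexamethasone count in either direction at ZT0, 25 of 35, is also near that share. Endothelial marker sums in WT ADX muscle were 206 to 216 FPKM at ZT12 and 212 to 261 FPKM at ZT0, above the dexamethasone ranges given before. All 8 endothelial markers were lower with dexamethasone than in WT ADX at both times, and with adrenaline 6 were lower at ZT12 and 7 at ZT0. With dexamethasone 4 of 6 fibroblast markers were lower at each time, while 2 were higher at ZT12 and 1 at ZT0, with sums of 110 to 141 FPKM in WT ADX+DEX and 94.5 to 194 FPKM in WT ADX muscle at ZT12, and 126 to 140.4 and 170.4 to 419 FPKM in these conditions at ZT0. All 5 erythroid markers were lower with dexamethasone at ZT12, at 80.7 to 141 FPKM in WT ADX+DEX and 121 to 337 FPKM in WT ADX muscle. Of 9 macrophage markers, 1 was higher and 4 lower with dexamethasone at ZT12, and 3 were higher and 1 lower with adrenaline. Of the 8 immediate early and heat shock genes 5 were higher with adrenaline at ZT12 and 2 at ZT0, with ZT12 sums of 266 to 362 FPKM in WT ADX+ADR and 11.5 to 69.3 FPKM in WT ADX muscle. At ZT0 these sums were 104 to 169.6 FPKM in WT ADX+ADR and 43.8 to 47.6 FPKM in WT ADX muscle. With dexamethasone they were 88.7 to 131 FPKM at ZT12, with 2 genes higher and 1 lower, and 105.0 to 121 FPKM at ZT0, with 3 higher and 2 lower. The part of these markers in the hormone results was not tested.

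In WT mice a subset of the genes was lower in ADX than in sham muscle, and none passed the test as higher. Substrain and surgery cannot be told apart here, since Nnt was at 0 in every WT ADX library. In WT ADX against WT sham muscle, 11 genes fell at ZT12, where 26.9% of all genes passed the test, 10.3% higher and 16.6% lower. At ZT0 12 fell, against 32% of all genes in either direction, 12.6% higher and 19.4% lower. In either direction both counts are shares near those of all genes, though none of the calls was a rise. The median log2 change of the 35 was -0.10 at ZT12 and -0.11 at ZT0, with -0.02 for all genes at both times. Map1lc3a, Bnip3, Optn, Lamp1, Atg13, Atg9a, Becn1, Rb1cc1 and Ctsd fell at both times. Atg101 and Ctsb passed at ZT12 alone, and Ulk2, Atg14 and Wipi1 at ZT0 alone, though the time effect in WT ADX minus that in WT sham passed for none of them. Endothelial marker sums were higher in WT ADX (206 to 216 FPKM) than in WT sham muscle (123 to 137 FPKM) at ZT12, and macrophage marker sums were 23.3 to 34.0 FPKM in WT ADX and 23.0 to 25.8 FPKM in WT sham muscle. At ZT0 the endothelial sums were 212 to 261 FPKM in WT ADX and 154 to 169.9 FPKM in WT sham, and the macrophage sums were 36.7 to 80.8 FPKM in WT ADX and 27.3 to 36.3 FPKM in WT sham. Of the 8 immediate early and heat shock genes 5 were higher in WT ADX at ZT12, with sums of 11.5 to 69.3 FPKM in WT ADX and 11.9 to 20.1 FPKM in WT sham muscle, and at ZT0 1 was higher and 1 lower. Their part in these results was not tested. In RE-RE mice, ADX against sham lowered 3 genes at ZT12 (Bnip3, Map1lc3b and Atg14), against 5.32% of all genes, 1.77% higher and 3.55% lower. At ZT0 it lowered 2 (Bnip3 and Optn), against 5.45% of all genes, 1.56% higher and 3.89% lower. Both are shares near that background. Fibroblast marker sums at ZT12 were 381 to 488 FPKM in RE-RE ADX and 278 to 323 FPKM in RE-RE sham muscle, without overlap. At ZT0 they overlapped, at 437 to 578 FPKM in RE-RE ADX and 229 to 503 FPKM in RE-RE sham muscle. Endothelial and macrophage sums overlapped at both times. The part of these markers in the RE-RE results was not tested. Without RE-RE sham replicate 8 or RE-RE ADX replicate 6, 1 of the ZT12 calls was left. Without RE-RE sham replicate 1 or RE-RE ADX replicate 2, 1 of the ZT0 calls was left.

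The difference between genotypes was itself tested. The ADX effect was less negative or more positive in RE-RE than in WT mice for Map1lc3a, Atg13 and Optn at ZT12, where 6.43% of all genes passed this test (4.82% higher and 1.62% lower). At ZT0 it was so for Map1lc3a, Atg13 and Rb1cc1, against 10.7% of all genes (7.38% higher and 3.29% lower). A count of 3 among 35 is near these backgrounds, and the values of the single genes follow. For Map1lc3a the difference was 0.69 ± 0.14 (SE, adjusted p = 0.00258) at ZT12 and 0.89 ± 0.15 (SE, adjusted p = 0.00012) at ZT0. For Atg13 it was 0.27 ± 0.07 (SE, adjusted p = 0.00947) at ZT12 and 0.49 ± 0.07 (SE, adjusted p = 1.53e-05) at ZT0. Optn at ZT12 (0.40 ± 0.13) and Rb1cc1 at ZT0 (0.30 ± 0.10) lay near the threshold, with adjusted p of 0.0477 and 0.0413, and each lost its call with age as a covariate. With 1 library left out in turn, Optn lost it in 12 of 16 cases and Rb1cc1 in 8 of 15. Without WT ADX replicate 1, or without RE-RE sham replicate 1, the ZT0 test called 7 and 5 genes. For Bnip3 the ADX effect was -0.38 in RE-RE and -0.39 in WT mice at ZT12, and -0.45 in RE-RE and -0.48 in WT mice at ZT0. The WT arm of this test rests on the WT ADX libraries.

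**Figure D3:**
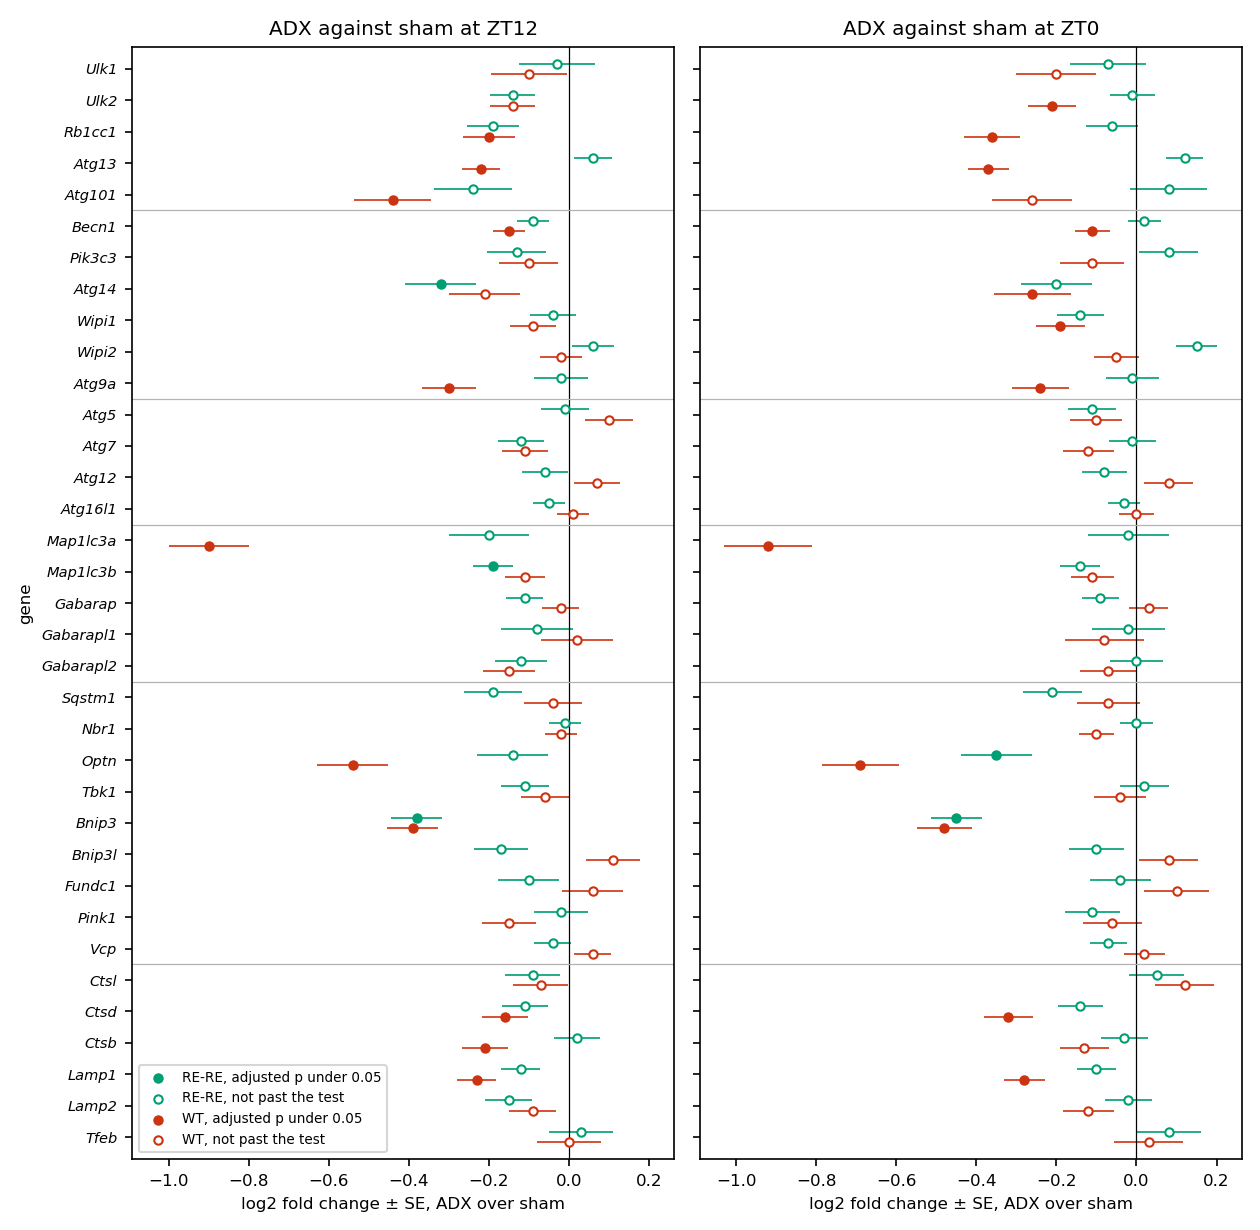
Log2 fold change ± SE of ADX over sham for the 35 genes in RE-RE and WT mice, at ZT12 and ZT0; filled points have an adjusted p under 0.05. Bnip3 lies at about the same place in both genotypes, while Map1lc3a is at -0.90 and -0.92 in WT mice and at -0.20 and -0.02 in RE-RE mice.

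The genes that passed the time-of-day test were mostly higher at ZT12. ZT12 against ZT0 raised 15 genes and lowered 3 in WT ADX+DEX muscle (27.8% of all genes passed), raised 6 and lowered 0 in WT ADX+ADR (12.7%), raised 7 and lowered 0 in WT ADX (11%), and raised 10 and lowered 3 in WT sham (23.5%). In RE-RE mice it raised 10 and lowered 1 in sham muscle (10.8%), and 0 passed in ADX muscle (0.775%), where limma gave 10 genes an unadjusted p under 0.05. The share of all genes under this unadjusted threshold was not counted, so those 10 cannot be set against it. By direction, the calls among all genes were 14.7% higher and 13.2% lower in WT ADX+DEX, 6.28% higher and 6.45% lower in WT ADX+ADR and 7.64% higher and 3.38% lower in WT ADX. They were 14% higher and 9.5% lower in WT sham, 5.73% higher and 5.03% lower in RE-RE sham and 0.592% higher and 0.183% lower in RE-RE ADX. In WT ADX+DEX and WT ADX+ADR muscle, time of day and time since injection at ZT12 cannot be told apart. The lipid kinase gene Pik3c3 rose at ZT12 in 5 of the 6 conditions, and Map1lc3b and Atg13 in 4. Without WT ADX replicate 1 or replicate 2 at ZT0, 11 or 1 of the genes passed in WT ADX, and with only the WT ADX groups in the model 0 did. Without RE-RE sham replicate 5, 6 or 8 at ZT12, 7, 7 or 4 genes passed in RE-RE sham.

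**Figure D4:**
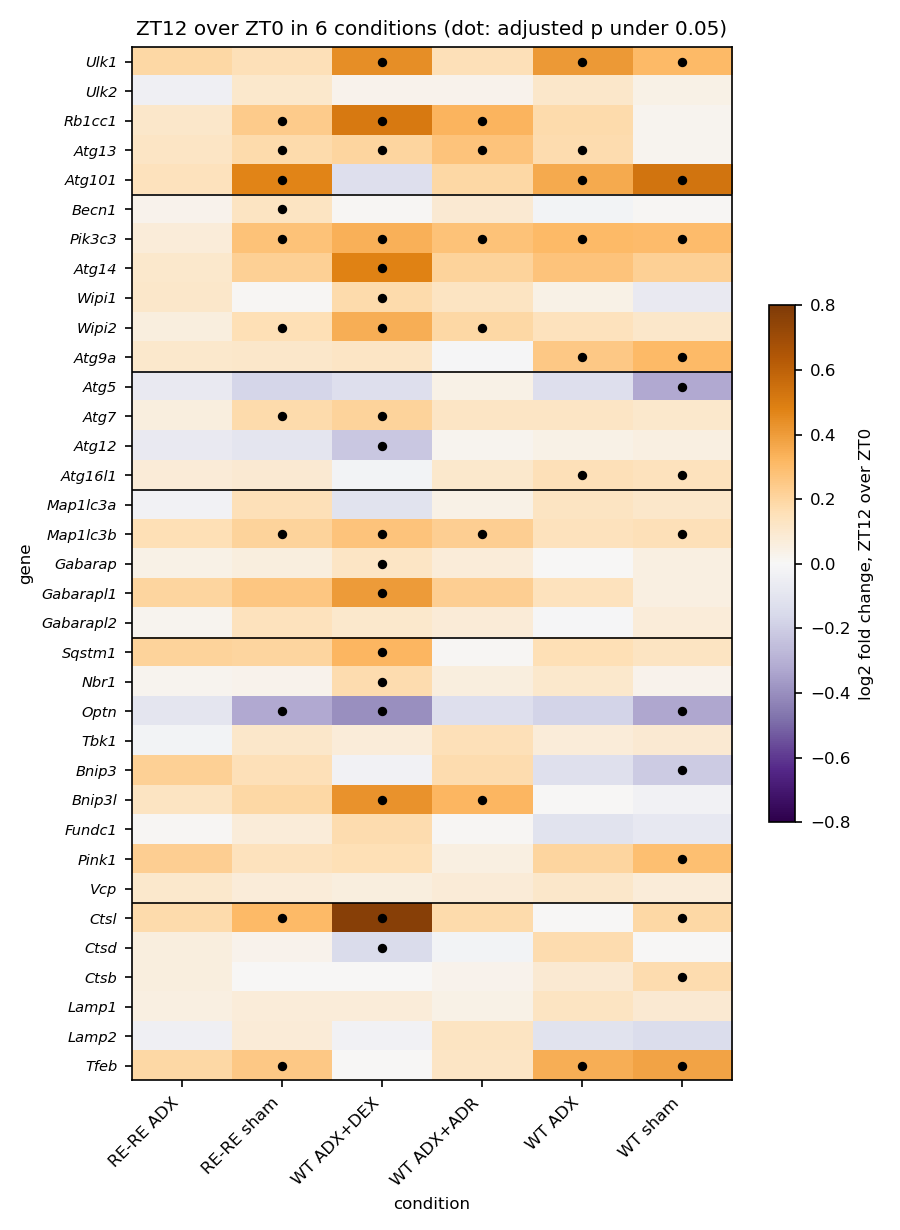
Log2 fold change of ZT12 over ZT0 for the 35 genes (rows) in the 6 conditions (columns), where a dot marks an adjusted p under 0.05. Pik3c3 has dots in 5 columns, Ctsl is strongest under dexamethasone (0.77), and the RE-RE ADX column has no dots.

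Marker genes moved with time of day too. Under dexamethasone 5 of 9 tested macrophage markers fell at ZT12, and their sum was 19.6 to 25.9 FPKM at ZT12 and 31.5 to 53.9 FPKM at ZT0, without overlap. Of the 8 endothelial markers 3 rose and 2 fell there. In WT ADX muscle 4 of the 9 fell, with sums of 23.3 to 34.0 FPKM at ZT12 and 36.7 to 80.8 FPKM at ZT0, and under adrenaline 2 did. In WT sham muscle 5 of 8 immediate early and heat shock genes fell at ZT12, where they summed to 11.9 to 20.1 FPKM against 17.8 to 77.9 FPKM at ZT0. There 4 of 7 muscle fibre genes rose, summing to 71990 to 82020 FPKM at ZT12 and 58680 to 66210 FPKM at ZT0, without overlap. In RE-RE sham muscle 2 of 8 endothelial markers fell, and 0 of the macrophage, muscle fibre and immediate early genes passed. The part of these markers in the time effects was not tested.

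The time effect under dexamethasone differed from that under adrenaline for Ctsl (0.59 ± 0.10 SE, adjusted p = 5.1e-05), Sqstm1 (0.32 ± 0.10 SE, adjusted p = 0.0359) and Atg12 (-0.23 ± 0.08 SE, adjusted p = 0.0491), where 13.6% of all genes passed (7.6% higher and 5.99% lower). Of these calls only that of Ctsl was left without any 1 of WT ADX+ADR replicates 2, 3 or 4 at ZT0, WT ADX+ADR replicates 5, 7 or 8 at ZT12, WT ADX+DEX replicate 3 or WT ADX+DEX replicate 5. It differed from that in WT sham for 10 genes, against 18.9% of all genes (9.21% higher and 9.69% lower). Ctsl, Rb1cc1, Bnip3l, Wipi2, Wipi1 and Gabarapl1 had the more positive time effect under dexamethasone, and Atg101, Tfeb, Atg12 and Atg16l1 the more negative one. Without WT sham replicate 7 at ZT12, 5 were called. In both kinds of test, time of day and time since injection at ZT12 cannot be told apart. The time effect in WT ADX did not pass the test of a difference from that in WT sham for any of the 35 genes (limma, 1.54% of all genes, 0.667% higher and 0.875% lower). An unadjusted p under 0.05 was found for 2 of them, a threshold at which the share of all genes was not counted.

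RE-RE sham and WT sham muscle differed in a share of the genes near that of all genes. In RE-RE sham against WT sham muscle 2 genes were higher and 3 lower at ZT12, and 1 was higher and 7 lower at ZT0, where 19.3% (9.22% higher and 10.1% lower) and 24.1% (12.5% higher and 11.6% lower) of all genes passed. This comparison shares the WT sham libraries with that of WT ADX against WT sham. Map1lc3a was the one gene higher at both times, by 0.35 ± 0.10 (SE, adjusted p = 0.0112) at ZT12 and 0.31 ± 0.10 (SE, adjusted p = 0.023) at ZT0, and both calls were lost without the 7 libraries that share almost no exact values. Atg7 also rose at ZT12. Ctsb, Atg9a and Tbk1 fell at ZT12, and Bnip3, Gabarapl1, Bnip3l, Tbk1, Atg13, Wipi1 and Rb1cc1 fell at ZT0. Without WT sham replicate 1 or 2 at ZT0, 3 or 4 of the ZT0 calls were made, and without RE-RE sham replicate 1 or 2, 5 were. At ZT12, 6 of the 8 immediate early and heat shock genes were higher, with sums of 53.0 to 72.3 FPKM in RE-RE sham and 11.9 to 20.1 FPKM in WT sham muscle. Of the fibroblast markers 4 of 6 were higher, with sums of 278 to 323 FPKM in RE-RE sham and 89.8 to 158 FPKM in WT sham muscle, as were 4 of 9 macrophage markers (23.1 to 52.9 FPKM in RE-RE sham and 23.0 to 25.8 FPKM in WT sham), and 3 of 7 muscle fibre genes were lower. At ZT0, 2 fibroblast and 2 macrophage markers and 1 of the immediate early and heat shock genes were higher, and 1 fibroblast and 2 endothelial markers were lower. Fibroblast sums were then 229 to 503 FPKM in RE-RE sham and 93.7 to 238 FPKM in WT sham muscle. The part of these markers in the genotype results was not tested.

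The ULK complex, which starts autophagosome formation, comprises the kinases Ulk1 and Ulk2 and their partners Rb1cc1 (FIP200), Atg13 and Atg101. Atg13 (Ensembl ENSMUSG00000027244) passed the test in more comparisons than any other member, 13 of the 18 between groups. At ZT12 it was 14.8, 14.6, 14.6 and 14.6 FPKM in WT ADX+DEX, 11.2, 12.4, 12.4 and 12.1 FPKM in WT ADX+ADR, 9.16, 9.34, 8.87 and 8.97 FPKM in WT ADX and 11.3, 9.85, 10.4 and 10.7 FPKM in WT sham muscle. No ZT12 library of WT ADX+DEX overlapped one of another WT condition, and none of WT ADX reached the lowest WT sham value. In RE-RE muscle at ZT12 Atg13 was 10.9, 10.9, 11.7 and 11.2 FPKM after ADX and 10.7, 10.7, 10.8 and 10.7 FPKM after sham surgery. Dexamethasone exceeded WT ADX by 0.69 ± 0.05 on the log2 scale at ZT12 (adjusted p = 3.69e-15) and adrenaline exceeded it by 0.41 ± 0.05 (adjusted p = 9.99e-09).

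Atg101, which steadies Atg13 in the complex, rose at ZT12 in 3 of the 6 conditions, WT ADX, WT sham and RE-RE sham. In WT ADX muscle the times overlapped, with 14.0 to 15.4 FPKM at ZT12 and 14.75, 8.58 and 11.9 FPKM at ZT0. In WT sham muscle it was 21.5, 19.2, 19.2 and 19.6 FPKM at ZT12 and 14.2, 12.9, 13.3 and 14.7 FPKM at ZT0, with no overlap and a log2 change of 0.53 ± 0.10 (SE, adjusted p = 0.000122). In RE-RE sham muscle it was 19.6, 23.7, 21.7 and 22.3 FPKM at ZT12 and 17.6, 14.6, 15.3 and 15.6 FPKM at ZT0, a change of 0.47 ± 0.10 (SE, adjusted p = 0.000888). Under dexamethasone the times overlapped, with 18.8, 22.4, 21.6 and 20.8 FPKM at ZT12 and 23.5, 22.4, 23.8 and 21.7 FPKM at ZT0 (adjusted p = 0.348). The time effect under dexamethasone minus that in WT sham was -0.66 ± 0.14 (SE, adjusted p = 0.00063).

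Rb1cc1, the scaffold of the complex, rose at ZT12 in WT ADX+DEX, WT ADX+ADR and RE-RE sham muscle. Under dexamethasone it was 8.95, 8.22, 9.17 and 9.26 FPKM at ZT12 and 6.41, 6.19, 6.04 and 6.25 FPKM at ZT0, a log2 change of 0.51 ± 0.07 (SE, adjusted p = 1.01e-07). Under adrenaline it was 7.23, 7.12, 6.36 and 7.30 FPKM at ZT12 and 5.66, 5.67, 5.41 and 5.55 FPKM at ZT0, a change of 0.33 ± 0.07 (SE, adjusted p = 0.00051). In RE-RE sham muscle, without hormone, it was 7.51, 8.30, 7.24 and 8.94 FPKM at ZT12 and 6.91, 6.17, 7.46 and 6.54 FPKM at ZT0, which overlapped (0.24 ± 0.07 SE, adjusted p = 0.0131), a call lost without RE-RE sham replicate 2 or 8. In WT sham muscle the groups overlapped at 7.02 to 8.84 FPKM and 7.28 to 8.00 FPKM. Ulk1, the kinase that receives nutrient signals from mTORC1 and AMPK, rose at ZT12 in WT ADX+DEX (0.44 ± 0.10), WT ADX (0.41 ± 0.10) and WT sham (0.31 ± 0.10). It spanned 17.7 to 21.9 FPKM at ZT12 and 13.2 to 16.3 FPKM at ZT0 under dexamethasone, without overlap. Ulk2, its close relative, passed no time test. It was higher under dexamethasone than under adrenaline at ZT12 (33.1 to 38.7 against 26.3 to 29.1 FPKM, 0.42 ± 0.06 SE, adjusted p = 1.39e-07) and at ZT0 (34.7 to 37.5 against 25.6 to 28.5 FPKM, 0.41 ± 0.06 SE, adjusted p = 1.3e-07).

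The membrane-marking step is carried by the lipid kinase Pik3c3 (VPS34), its partners Becn1 and Atg14, the lipid readers Wipi1 and Wipi2, and Atg9a, a lipid scramblase in the vesicles that seed the membrane. Pik3c3 at ZT12 and ZT0 was 6.35 to 7.07 and 4.70 to 5.53 FPKM in WT ADX+DEX muscle and 5.56 to 6.24 and 4.25 to 5.54 FPKM in WT sham muscle. Its log2 time effect (± SE) was 0.34 ± 0.07, 0.28 ± 0.07, 0.31 ± 0.08, 0.30 ± 0.07 and 0.28 ± 0.07 in WT ADX+DEX, WT ADX+ADR, WT ADX, WT sham and RE-RE sham, and 0.07 ± 0.07 in RE-RE ADX, where it did not pass (adjusted p = 0.815). The 5 that passed lay between 0.28 and 0.34.

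Atg9a had its highest values under dexamethasone. At ZT12 it was 23.1, 22.4, 22.1 and 23.8 FPKM in WT ADX+DEX and 14.6, 16.9, 18.0 and 15.6 FPKM in WT ADX+ADR muscle, with no overlap and a log2 change of 0.50 ± 0.07 (SE, adjusted p = 1.49e-07). In WT ADX against WT sham muscle at ZT12 its log2 change was -0.30 ± 0.07 (SE, adjusted p = 0.00108), with 15.1, 17.2, 15.0 and 15.5 FPKM in WT ADX and 18.4, 18.8, 19.9 and 19.8 FPKM in WT sham libraries. Becn1 was higher under dexamethasone than under adrenaline at ZT12 (0.22 ± 0.04 SE, adjusted p = 2.28e-05) and at ZT0 (0.30 ± 0.04 SE, adjusted p = 8.06e-08). Atg14 rose at ZT12 under dexamethasone, to 4.66, 4.01, 4.40 and 3.68 FPKM against 3.42, 3.04, 2.88 and 2.68 FPKM at ZT0 (0.48 ± 0.09 SE, adjusted p = 6.14e-05). The WIPI genes split: against adrenaline at ZT12, dexamethasone muscle had more Wipi2 (0.19 ± 0.05 SE, adjusted p = 0.00308) and less Wipi1 (-0.31 ± 0.06 SE, adjusted p = 4.77e-05). Wipi1 averaged 14.1 ± 0.606 FPKM in WT ADX+DEX and 17.4 ± 0.547 FPKM in WT ADX+ADR muscle (SD, n = 4 each), and Wipi2 averaged 5.31 ± 0.117 FPKM in WT ADX+DEX and 4.65 ± 0.0765 FPKM in WT ADX+ADR muscle.

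The conjugation genes attach ATG8 proteins to membrane lipid, and 1.18-fold to 1.51-fold separated their highest and lowest group means. Atg7, the activating enzyme, was 2.14 ± 0.12 FPKM in WT ADX+DEX, 2.06 ± 0.101 FPKM in WT ADX+ADR and 1.54 ± 0.114 FPKM in WT ADX muscle at ZT12 (SD, n = 4 each). It exceeded WT ADX by 0.47 ± 0.06 (SE, adjusted p = 8.99e-09) with dexamethasone and 0.42 ± 0.06 (SE, adjusted p = 3.16e-07) with adrenaline. Atg12, the first ubiquitin-like protein, was lower under dexamethasone than under adrenaline at ZT12, with a log2 change of -0.38 ± 0.06 (SE, adjusted p = 1.25e-06). Atg5, its conjugation partner, passed in 1 of the 18 comparisons between groups. In WT sham muscle it was 5.87, 5.73, 6.53 and 5.94 FPKM at ZT12 and 7.59, 7.33, 7.64 and 7.57 FPKM at ZT0, without overlap (-0.32 ± 0.06 SE, adjusted p = 0.000154). Atg16l1, which places the Atg12-Atg5 conjugate on the membrane, rose at ZT12 in WT ADX and WT sham by 0.15 ± 0.04 and 0.14 ± 0.04 on the log2 scale.

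In the ATG8 family, Map1lc3a (LC3A, Ensembl ENSMUSG00000027602, 2:155276297-155278073 on the plus strand of GRCm38) spanned 4.86-fold between group means, against 1.19-fold to 1.62-fold for the other 4 ATG8 genes. At ZT12 it was 197, 199, 200.2 and 214 FPKM in WT ADX+DEX, 103, 107, 139 and 114 FPKM in WT ADX+ADR, 50.6, 52.3, 53.0 and 40.2 FPKM in WT ADX and 94.3, 99.0, 84.2 and 86.1 FPKM in WT sham muscle. At ZT0 it was 210.5, 207, 199 and 261 FPKM in WT ADX+DEX, 108, 120.0, 111 and 107 FPKM in WT ADX+ADR, 54.9, 38.7 and 41.9 FPKM in WT ADX and 75.1, 82.1, 88.1 and 92.5 FPKM in WT sham muscle. In order of level, dexamethasone libraries lay above all others, then adrenaline, then sham, then ADX alone, and these 4 conditions did not overlap at either time.

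Dexamethasone exceeded adrenaline by 1.76-fold at ZT12 (log2 0.82 ± 0.10 SE, adjusted p = 2.82e-08) and 1.96-fold at ZT0 (log2 0.97 ± 0.10 SE, adjusted p = 4.32e-10). Map1lc3a was higher than in WT ADX by 2.05 ± 0.10 at ZT12 and 2.29 ± 0.11 at ZT0 with dexamethasone (log2, SE). With adrenaline it was higher by 1.23 ± 0.10 and 1.32 ± 0.11. ADX against sham gave log2 changes in WT mice of -0.90 ± 0.10 (SE, adjusted p = 4.64e-08) at ZT12 and -0.92 ± 0.11 (SE, adjusted p = 7.51e-08) at ZT0. In RE-RE mice the groups overlapped at both times. There Map1lc3a was 98.2, 92.7, 97.3 and 116 FPKM after ADX and 126, 113, 126 and 100.4 FPKM after sham surgery at ZT12, and 110.1, 97.4, 102 and 103 FPKM after ADX and 104, 112, 109 and 94.2 FPKM after sham surgery at ZT0. In the 2 WT sham libraries at ZT12 with Nnt listed at 0 Map1lc3a was 99.0 and 84.2 FPKM, and in the other 2 it was 94.3 and 86.1 FPKM. These values do not test substrain, since a 0 can be a failed estimate. Wdfy1 in these 4 libraries was 1.89 to 4.11 FPKM, above its WT ADX range. Map1lc3a passed in 0 of the 6 time comparisons.

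Of the other ATG8 genes, Map1lc3b (LC3B), the form most used to follow autophagosomes, rose at ZT12 in WT ADX+DEX, WT ADX+ADR, WT sham and RE-RE sham muscle. Under dexamethasone it was 22.2, 22.1, 21.5 and 22.3 FPKM at ZT12 and 19.7, 18.4, 18.0 and 17.0 FPKM at ZT0 (0.27 ± 0.05 SE, adjusted p = 4.8e-05). Under adrenaline it was 16.4, 17.4, 18.8 and 17.3 FPKM at ZT12 and 13.8, 15.2, 15.1 and 15.6 FPKM at ZT0 (0.23 ± 0.05 SE, adjusted p = 0.00133). Gabarapl1 rose at ZT12 under dexamethasone, to 36.2, 28.0, 27.8 and 33.9 FPKM against 24.1, 24.2, 23.1 and 23.2 FPKM at ZT0, without overlap (0.40 ± 0.09 SE, adjusted p = 0.000738). Gabarapl2 was higher at ZT12 in WT ADX+DEX than in WT ADX by 0.37 ± 0.07. Gabarap, the most abundant of these 4 per length (median 59.0 FPKM), stayed between 51.3 and 67.5 FPKM in all 47 libraries. It passed in 2 of the 18 comparisons between groups.

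**Figure D5:**
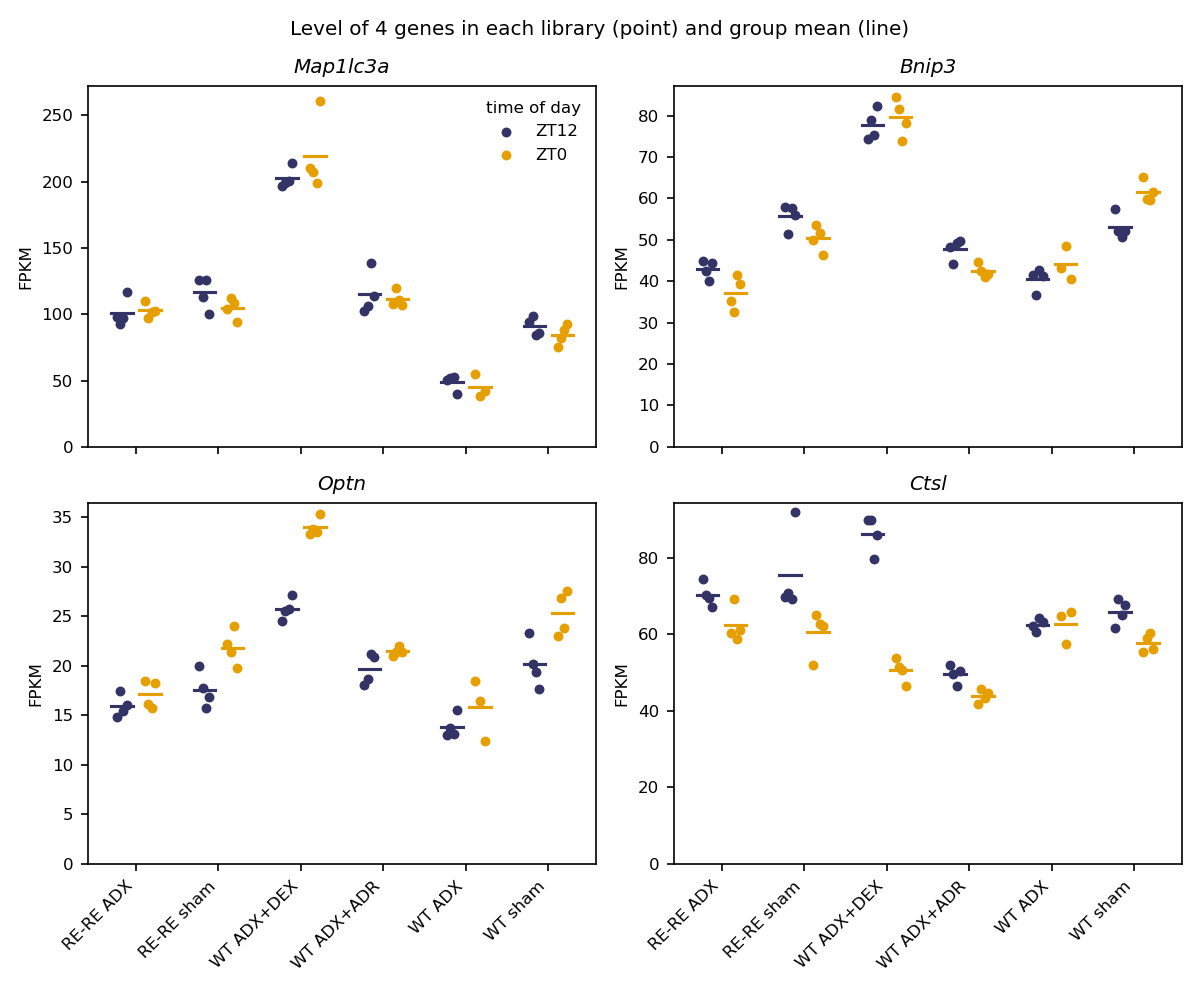
FPKM of Map1lc3a, Bnip3, Optn and Ctsl in every library (points) with the group mean (line), by condition and time of day. Among libraries of the same time, those with dexamethasone are highest for Map1lc3a, Bnip3 and Optn at both ZT12 and ZT0. For Ctsl the ZT12 and ZT0 points of WT ADX+DEX are 79.7 to 89.9 and 46.5 to 53.8 FPKM.

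Among the receptors, Bnip3 is an outer mitochondrial membrane protein that draws mitochondria into autophagosomes. Bnip3 was lower in ADX than in sham muscle in both genotypes and was highest with dexamethasone. At ZT0 it was 35.1, 32.7, 41.4 and 39.2 FPKM in RE-RE ADX and 50.1, 53.5, 51.8 and 46.3 FPKM in RE-RE sham muscle, and 43.3, 48.4 and 40.5 FPKM in WT ADX and 65.3, 59.8, 59.7 and 61.5 FPKM in WT sham muscle. ADX and sham libraries did not overlap in either genotype, with log2 changes of -0.45 ± 0.06 (SE, adjusted p = 0.000115) in RE-RE and -0.48 ± 0.07 (SE, adjusted p = 1.23e-06) in WT mice. With only the 2 RE-RE groups in the model the RE-RE call at ZT0 was lost. At ZT12 the changes were -0.38 ± 0.06 (SE, adjusted p = 0.000564) in RE-RE and -0.39 ± 0.06 (SE, adjusted p = 1.79e-05) in WT mice. Under dexamethasone Bnip3 was 84.6, 81.7, 73.9 and 78.2 FPKM at ZT0, against 44.6, 42.5, 41.0 and 41.8 FPKM under adrenaline, a log2 change of 0.90 ± 0.06 (SE, adjusted p = 1.46e-14). Adrenaline libraries at ZT0 lay within the WT ADX range of 40.5 to 48.4 FPKM, and the adrenaline effect was -0.05 ± 0.07 (adjusted p = 0.554). At ZT12 adrenaline exceeded WT ADX by 0.24 ± 0.06 (SE, adjusted p = 0.00159).

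Optn, a ubiquitin-binding receptor of mitophagy, was lower at ZT12 than at ZT0 in WT ADX+DEX, WT sham and RE-RE sham muscle. In WT sham muscle it was 23.3, 20.2, 19.4 and 17.7 FPKM at ZT12 and 23.0, 26.8, 23.8 and 27.5 FPKM at ZT0 (-0.33 ± 0.09 SE, adjusted p = 0.00619), where 1 ZT12 library lay above the lowest ZT0 library. Under dexamethasone it was 24.5, 25.5, 25.7 and 27.1 FPKM at ZT12 and 33.3, 33.8, 33.5 and 35.3 FPKM at ZT0 (-0.40 ± 0.09 SE, adjusted p = 0.000596), with no overlap. At ZT0 it was 21.0, 21.4, 22.0 and 21.4 FPKM under adrenaline, 18.5, 16.5 and 12.4 FPKM in WT ADX and 18.4, 16.1, 15.7 and 18.3 FPKM in RE-RE ADX muscle. Dexamethasone exceeded adrenaline by 0.66 ± 0.09 (SE, adjusted p = 9.71e-08) at ZT0, and WT ADX against WT sham gave -0.69 ± 0.10 (SE, adjusted p = 1.16e-06). The RE-RE ADX effect at ZT0 was -0.35 ± 0.09 (SE, adjusted p = 0.0176), a call lost without RE-RE sham replicate 1 or without RE-RE ADX replicate 2 or 3. Tbk1, the kinase that activates Optn and Sqstm1, was higher under dexamethasone than under adrenaline by 0.17 ± 0.06 at ZT12 and 0.25 ± 0.06 at ZT0. Tbk1 at ZT0 was 5.17 to 6.03 FPKM with dexamethasone, 4.57 to 4.87 FPKM with adrenaline and 5.19 to 6.07 FPKM in WT ADX muscle.

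Sqstm1 (p62), which links ubiquitinated cargo to ATG8 proteins, rose at ZT12 under dexamethasone. It was 173, 167, 146 and 172 FPKM at ZT12 and 137, 133, 131 and 126 FPKM at ZT0 (0.32 ± 0.07 SE, adjusted p = 0.000813), without overlap, while under adrenaline it spanned 125 to 146 FPKM at ZT12 and 124 to 141 FPKM at ZT0. Nbr1, a related receptor, rose in the same condition by 0.17 ± 0.04. Pink1 rose at ZT12 in WT sham muscle, where it was 424, 452, 424 and 410.0 FPKM at ZT12 and 354, 369, 321 and 360.4 FPKM at ZT0 (0.29 ± 0.07 SE, adjusted p = 0.00224). Those groups did not overlap.

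Of the 9 receptor and mitophagy genes, 3 were higher and 3 lower with dexamethasone than in WT ADX at ZT0. At ZT12, 4 were higher and 2 lower. With adrenaline, 2 were higher and 4 lower at ZT0, and 2 were higher and 3 lower at ZT12. Pink1 was higher with dexamethasone at ZT0 and ZT12, averaging 419 and 469 FPKM, against 337 and 387 FPKM in WT ADX muscle. Those lower with dexamethasone at ZT0 were Bnip3l, Fundc1 and Vcp. Bnip3l (NIX), the paralog of Bnip3, was lower with dexamethasone than in WT ADX at ZT0, at 9.46, 8.79, 9.07 and 7.59 FPKM against 13.9, 12.1 and 12.0 FPKM (-0.54 ± 0.07 SE, adjusted p = 5.12e-08), and lower with adrenaline as well (-0.42 ± 0.07 SE, adjusted p = 1.41e-05). It rose at ZT12, to 11.8, 11.0, 12.2 and 11.9 FPKM with dexamethasone (0.43 ± 0.07 SE, adjusted p = 5.59e-06) and 12.1, 12.4, 10.7 and 11.9 FPKM with adrenaline (0.32 ± 0.07 SE, adjusted p = 0.0011). Fundc1, a mitophagy receptor that responds to low oxygen, gave log2 changes at ZT0 of -0.47 ± 0.08 in WT ADX+DEX against WT ADX and -0.25 ± 0.08 in WT ADX+DEX against WT ADX+ADR. Vcp, an ATPase that extracts ubiquitinated proteins, was lower with either hormone. At ZT12 it was 48.2, 45.5, 40.2 and 48.5 FPKM with dexamethasone, 48.7, 49.2, 46.3 and 46.7 FPKM with adrenaline and 61.3, 61.7, 61.2 and 63.8 FPKM in WT ADX muscle, a change against WT ADX of -0.45 ± 0.05 (SE, adjusted p = 1.2e-10) with dexamethasone and -0.38 ± 0.05 (SE, adjusted p = 2.28e-08) with adrenaline. Vcp did not pass the test between dexamethasone and adrenaline at ZT12 (-0.07 ± 0.05, adjusted p = 0.238).

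Among lysosomal genes the protease Ctsl (cathepsin L), long known as a gene induced in wasting muscle, had the largest difference between ZT12 and ZT0 of the 35. It was found with dexamethasone, where time of day and time since injection cannot be told apart. Under dexamethasone it was 89.8, 89.9, 79.7 and 85.9 FPKM at ZT12 and 53.8, 51.6, 50.7 and 46.5 FPKM at ZT0, a log2 change of 0.77 ± 0.07 (SE, adjusted p = 4.74e-11). Under adrenaline it was 51.9, 49.6, 46.5 and 50.4 FPKM at ZT12 and 41.8, 45.7, 43.3 and 44.7 FPKM at ZT0, and in WT ADX muscle 62.0, 60.6, 64.2 and 63.2 FPKM at ZT12 and 64.9, 57.6 and 65.8 FPKM at ZT0, where the times overlapped. Dexamethasone libraries were thus above WT ADX at ZT12 (0.46 ± 0.07 SE, adjusted p = 3.05e-07) and below it at ZT0 (-0.31 ± 0.07 SE, adjusted p = 0.000404). Adrenaline libraries were below WT ADX at both times (-0.33 ± 0.07 SE, adjusted p = 0.000113 and -0.51 ± 0.07 SE, adjusted p = 6.58e-07). In RE-RE sham muscle Ctsl was 69.8, 70.7, 69.3 and 91.8 FPKM at ZT12 and 52.0, 65.1, 62.7 and 62.1 FPKM at ZT0 (0.31 ± 0.07 SE, adjusted p = 0.00183).

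The other lysosomal members had smaller changes. Lamp1, a major protein of the lysosomal membrane, was 192, 164 and 169.6 FPKM in WT ADX and 222, 217, 208 and 203 FPKM in WT sham muscle at ZT0, without overlap (-0.28 ± 0.05 SE, adjusted p = 0.000108). At ZT12 the change was -0.23 ± 0.05 (SE, adjusted p = 0.000521). Lamp1, whose promoter holds 4 E-boxes, passed in 0 of the 6 time comparisons. Ctsd (cathepsin D) was 196, 184 and 189 FPKM in WT ADX and 231, 234, 246 and 236 FPKM in WT sham muscle at ZT0 (-0.32 ± 0.06 SE, adjusted p = 0.00014), and it was higher with dexamethasone than with adrenaline by 0.20 ± 0.06 at ZT12 and 0.33 ± 0.06 at ZT0. Ctsb (cathepsin B) was higher with dexamethasone than with adrenaline by 0.21 ± 0.06 at ZT12 and 0.24 ± 0.06 at ZT0. Lamp2, which also serves fusion of autophagosomes with lysosomes, was 12.4, 12.2, 11.9 and 12.5 FPKM with dexamethasone and 8.43, 9.52, 8.25 and 9.87 FPKM with adrenaline at ZT0 (0.45 ± 0.06 SE, adjusted p = 7.57e-08). In WT ADX muscle at ZT0 Lamp2 was 10.32, 11.52 and 12.15 FPKM.

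Tfeb rose at ZT12 in WT ADX, WT sham and RE-RE sham muscle. In WT sham muscle it was 15.9, 17.9, 16.0 and 15.7 FPKM at ZT12 and 13.0, 12.4, 11.8 and 13.3 FPKM at ZT0 (0.38 ± 0.08 SE, adjusted p = 0.000704), with no overlap. In WT ADX muscle it was 15.9, 19.1, 16.7 and 14.3 FPKM at ZT12 and 14.7, 11.8 and 12.2 FPKM at ZT0 (0.35 ± 0.09 SE, adjusted p = 0.00674), a call lost without WT ADX replicate 2. With dexamethasone it was 20.9, 19.9, 17.9 and 23.0 FPKM at ZT12 and 20.8, 21.2, 20.4 and 19.1 FPKM at ZT0, where the times overlapped and lay above the WT ADX+ADR ranges of 16.0 to 18.0 and 14.5 to 17.3 FPKM except for 1 library at ZT12. Its time effect under dexamethasone minus that in WT sham was -0.38 ± 0.11 (SE, adjusted p = 0.0166). ADX against sham changed Tfeb by 0.00 ± 0.08 and 0.03 ± 0.09 in WT mice at ZT12 and ZT0, and it did not pass (adjusted p = 0.988 and 0.847).

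Other genes of the pathway were counted from lists made with results of these data known. Of 32 further autophagy genes, 18 were higher and 3 lower with dexamethasone than with adrenaline at ZT12, and 17 were higher and 2 lower at ZT0. Of all genes, 21.2% higher and 21.4% lower passed in this comparison at ZT12, and 25.1% higher and 23.5% lower at ZT0. The GTPase Rab7, which drives fusion with the lysosome, was 1.77-fold higher at ZT0 (log2 0.83 ± 0.11 SE, adjusted p = 3.99e-08), and Vmp1, which acts early in membrane formation, was higher by 0.83 ± 0.12 (SE, adjusted p = 1.91e-07). In WT ADX against WT sham muscle 0 of these 32 rose and 11 fell at ZT12, and 0 rose and 13 fell at ZT0, against 10.3% higher and 16.6% lower of all genes at ZT12 and 12.6% higher and 19.4% lower at ZT0. Rab7 fell at ZT12 (-0.89 ± 0.11 SE, adjusted p = 1.32e-07) and at ZT0 (-0.74 ± 0.11 SE, adjusted p = 6.09e-06), as did the lipid transfer gene Atg2a (-0.36 ± 0.06 SE, adjusted p = 3.19e-05 and -0.48 ± 0.07 SE, adjusted p = 7.9e-07). The ADX effect on Rab7 and on Atg2a was less negative or more positive in RE-RE than in WT mice at ZT12, by 0.85 ± 0.15 (SE, adjusted p = 0.000439) and 0.44 ± 0.09 (SE, adjusted p = 0.00117).

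Of 17 tested further receptors, 8 were higher and 1 lower with dexamethasone than with adrenaline at ZT12, against 21.2% higher and 21.4% lower among all genes. The reticulophagy receptor Calcoco1 was higher by 0.44 ± 0.05 (SE, adjusted p = 3.91e-09), and it rose at ZT12 over ZT0 in all 6 conditions, by 0.36, 0.22, 0.26 and 0.31 in WT ADX+DEX, WT ADX+ADR, WT ADX and WT sham and by 0.22 and 0.18 in RE-RE ADX and RE-RE sham. The glycogen-binding receptor Stbd1 was lower, with log2 changes of -0.96 ± 0.14 (SE, adjusted p = 5.68e-07) at ZT12 and -1.03 ± 0.14 (SE, adjusted p = 9.71e-08) at ZT0.

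Lysosomal enzymes outside the 35 were counted in the same way. Of 35 such enzymes, 6 were higher and 13 lower with dexamethasone than with adrenaline at ZT12, and 7 were higher and 17 lower at ZT0, with a median log2 change of -0.10 and -0.11, against 21.2% higher and 21.4% lower of all genes at ZT12 and 25.1% higher and 23.5% lower at ZT0. Against WT ADX, 11 of these enzymes were higher and 13 lower with dexamethasone at ZT12, where 34.6% higher and 31.7% lower of all genes passed. At ZT0 8 were higher and 16 lower, against 36.4% higher and 32.5% lower of all genes. The protease Lgmn (legumain) was lower, with log2 changes of -1.21 ± 0.10 (SE, adjusted p = 7.21e-13) at ZT12 and -1.35 ± 0.10 (SE, adjusted p = 2.1e-14) at ZT0. The glycosidase Man2b1 gave -0.45 ± 0.06 (SE, adjusted p = 1.35e-07) at ZT12 and -0.52 ± 0.06 (SE, adjusted p = 4.51e-09) at ZT0. Lgmn averaged 6.51 ± 0.336 FPKM in WT ADX+DEX and 15.1 ± 1.83 FPKM in WT ADX+ADR muscle at ZT12 (SD, n = 4 each). The summed level of the 35 enzymes went the other way at ZT12, at 782.2 to 849.7 FPKM in WT ADX+DEX and 725.5 to 762.6 FPKM in WT ADX+ADR muscle, without overlap. At ZT0 the sums overlapped, at 791.5 to 826.9 FPKM in WT ADX+DEX and 725.4 to 804.9 FPKM in WT ADX+ADR muscle. Macrophages express many lysosomal enzymes, and the macrophage and endothelial marker sums given above were lower with dexamethasone at ZT12 too. Their part in these values was not tested. Of 23 tested lysosomal membrane genes 4 were higher and 5 lower at ZT12, and of 17 subunits of the proton pump that acidifies the lysosome 3 were higher and 4 lower, shares near the 21.2% higher and 21.4% lower of all genes. The membrane genes summed to 340.0 to 358.7 FPKM in WT ADX+DEX and 362.7 to 396.4 FPKM in WT ADX+ADR muscle at ZT12. At ZT0 they summed to 332.9 to 339.4 FPKM in WT ADX+DEX and 371.6 to 387.6 FPKM in WT ADX+ADR muscle, without overlap at either time. The cholesterol exporter Npc1 was higher with dexamethasone by 0.73 ± 0.11 (SE, adjusted p = 5.12e-07) at ZT12 and 0.92 ± 0.11 (SE, adjusted p = 3.04e-09) at ZT0.

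Upstream regulators of autophagy and muscle wasting were also counted. Of 28 tested, 13 were higher and 4 lower with dexamethasone than with adrenaline at ZT12, against 21.2% higher and 21.4% lower of all genes. Foxo1, a transcription factor that drives atrophy and autophagy genes, fell at ZT12 under dexamethasone, with a log2 change of -1.14 ± 0.17 (SE, adjusted p = 1.92e-06), and rose at ZT12 in WT sham muscle by 1.28 ± 0.17 (SE, adjusted p = 7.17e-07). Foxo3 gave -0.57 ± 0.08 (SE, adjusted p = 8.44e-07) under dexamethasone and 0.63 ± 0.08 (SE, adjusted p = 3.8e-07) in WT sham. The difference of the 2 time effects was -2.42 ± 0.24 (SE, adjusted p = 1.72e-09) for Foxo1 and -1.20 ± 0.11 (SE, adjusted p = 6.87e-10) for Foxo3. Klf15, a glucocorticoid target, was higher with dexamethasone than in WT ADX at ZT12 by 1.96 ± 0.14 (SE, adjusted p = 3.03e-14), and gave -1.44 ± 0.14 (SE, adjusted p = 3.27e-09) in WT ADX against WT sham. Trim63 (MuRF1), a ubiquitin ligase of muscle wasting, was higher with dexamethasone than with adrenaline by 0.79 ± 0.15 (SE, adjusted p = 6.72e-05) at ZT12.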

How the data were processed

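RNA was sequenced from tibialis anterior muscle as 60-base single-end reads, at about 25M per sample per the labels' protocols. Per the submitters' processing notes, the build was GRCm38 and the tools were edgeR 3.30.0, FastQC 0.11.8, featureCounts 1.6.2, HISAT2 2.1.0 and Trim Galore 0.5.0; which of them gave the values is not given in the sources used here. The authors deposited log2 FPKM values, floored at an offset of 0.01 FPKM, and these were turned back to FPKM for display. FPKM scales by gene length and library total, so a few abundant genes can move all others. Depth (16.3M to 35.6M reads) came from 68 low genes, whose deposited values were whole reads within 0.05 read in 99.5% of 633 cases.

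IDs were matched to symbols through GENCODE M21 (13441 of 13500 matched). A model with the 12 groups was fitted with limma 3.58.1 in R 4.3.3 on log2(FPKM + 0.01) over 12000 genes with 35 residual degrees of freedom, and p-values are two-sided, adjusted by Benjamini-Hochberg over all genes. Intervals are SE of the fit. The code was tested on simulated data. The members and lists were chosen with earlier results of these data known. By rule, library values were given for at most 8 members per comparison, taken by adjusted p, and for a set list of genes, and up to 4 genes of each further list were named; library values of further members, and Nnt, Wdfy1 and Col1a1, were added once seen. Alternatives comprised an offset of 1, testing all genes unfiltered, equal library medians, only the groups compared, age, a replicate block, each library left out, and, chosen after seeing the data, no use of 7 libraries.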

Additional observations from a re-analysis of the deposited data

Results flagged for a closer look

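Of 385 sets of 4 libraries (a gene in a group), 15 (3.9%) had 1 library whose gap to the nearest other, over the range of the set, exceeded Dixon's critical value for 4 samples at the 95% level. Chance alone gives about 1 in 20 such sets. The libraries above their group were as follows. Gabarapl2 in WT ADX+DEX muscle at ZT0 was 12.27 FPKM in replicate 1, above 10.76 to 11.01 FPKM in the other 3. Sqstm1 in WT sham muscle at ZT12 was 177.4 FPKM in replicate 6, above 144.6 to 150.1 FPKM in the other 3. Becn1 in WT ADX+DEX muscle at ZT0 was 12.03 FPKM in replicate 4, above 11.39 to 11.48 FPKM in the other 3. Pik3c3 in WT ADX+DEX muscle at ZT12 was 7.068 FPKM in replicate 5, above 6.348 to 6.43 FPKM in the other 3. Atg7 in WT ADX+DEX muscle at ZT12 was 2.315 FPKM in replicate 7, above 2.062 to 2.094 FPKM in the other 3. Atg13 in WT ADX+DEX muscle at ZT12 was 14.8 FPKM in replicate 5, above 14.61 to 14.63 FPKM in the other 3. Atg14 in RE-RE sham muscle at ZT0 was 3.591 FPKM in replicate 2, above 3.112 to 3.178 FPKM in the other 3. Atg9a in WT sham muscle at ZT0 was 15.78 FPKM in replicate 2, above 15.42 to 15.43 FPKM in the other 3. Tfeb in WT sham muscle at ZT12 was 17.95 FPKM in replicate 6, above 15.66 to 16.02 FPKM in the other 3. Ctsl in RE-RE sham muscle at ZT12 was 91.84 FPKM in replicate 8, above 69.26 to 70.71 FPKM in the other 3. Lamp1 in WT ADX+DEX muscle at ZT12 was 257.3 FPKM in replicate 8, above 240.4 to 241.5 FPKM in the other 3. Those below their group were as follows. Becn1 in WT ADX+DEX muscle at ZT12 was 11.15 FPKM in replicate 5, below 11.85 to 11.92 FPKM in the other 3. Atg5 in WT ADX muscle at ZT12 was 5.842 FPKM in replicate 4, below 6.621 to 6.656 FPKM in the other 3. Atg9a in RE-RE sham muscle at ZT0 was 12.29 FPKM in replicate 3, below 15.45 to 15.93 FPKM in the other 3. Ctsb in WT ADX muscle at ZT12 was 73.08 FPKM in replicate 7, below 78.56 to 78.92 FPKM in the other 3.

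Among 19 differences between effects that passed the limma test, the time effect in WT ADX+DEX minus that in WT ADX+ADR, on the log2 scale, passed for Sqstm1 (0.32), Atg12 (-0.23) and Ctsl (0.59). The time effect in WT ADX+DEX minus that in WT sham passed for Gabarapl1 (0.36), Bnip3l (0.46), Rb1cc1 (0.49), Atg12 (-0.26), Atg16l1 (-0.16), Atg101 (-0.66), Wipi1 (0.24), Wipi2 (0.23), Tfeb (-0.38) and Ctsl (0.58). The ADX effect in RE-RE minus that in WT at ZT12 passed for Map1lc3a (0.69), Atg13 (0.27) and Optn (0.40), and at ZT0 for Map1lc3a (0.89), Rb1cc1 (0.30) and Atg13 (0.49). Several lay close to the threshold, among them Atg12 (adjusted p = 0.0491), Optn (0.0477), Gabarapl1 (0.0463) and Rb1cc1 at ZT0 (0.0413).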

How the results depend on the processing

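Of 248 calls of single genes in the 23 comparisons, 0 reversed under any alternative. Calls kept were 247 with log2(FPKM + 1), 246 without the filter, 238 with equal library medians, 233 with age in the model, 187 with only the groups compared, and 202 without the 7 libraries that share almost no exact values. With only the groups compared, the count was 0 for time in WT ADX, 1 for time in RE-RE sham, 0 at ZT0 and 1 at ZT12 for RE-RE ADX against RE-RE sham, and 2 at ZT0 and 3 at ZT12 for RE-RE sham against WT sham. Without the 7 libraries it was 5 for time in WT sham, 5 for time in RE-RE sham, 1 at each time for RE-RE ADX against RE-RE sham and for RE-RE sham against WT sham, 1 for time in WT ADX+DEX minus time in WT ADX+ADR, 6 for time in WT ADX+DEX minus time in WT sham, and 1 for the ADX effect in RE-RE minus that in WT at ZT12. The cause was not tested, though fewer libraries enter those models.

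Replicate numbers did not pair the libraries: same-numbered libraries had deviations correlated at -0.10 to 0.22. A replicate block kept 103 of 193 calls. It gave 0 at ZT0 and 2 at ZT12 for WT ADX against WT sham, 0 and 0 for RE-RE ADX against RE-RE sham, 6 and 6 for WT ADX+ADR against WT ADX, 2 and 2 for RE-RE sham against WT sham, 4 for time in WT ADX+DEX minus time in WT sham, and 0 for the ADX effect in RE-RE minus that in WT at ZT12. ZT12 and ZT0 libraries share no numbers, so single time effects have no block.

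Leaving out 1 library in turn, the time comparison called 15 to 19 genes under dexamethasone, 6 to 7 under adrenaline, 1 to 11 after ADX alone and 10 to 14 after sham surgery in WT mice. In RE-RE mice it called 0 to 1 after ADX (1 without replicate 3) and 4 to 9 after sham surgery. Ranges at ZT0 and ZT12 were 19 to 21 and 24 to 26 for WT ADX+DEX against WT ADX+ADR, 23 to 26 and 27 to 30 for WT ADX+DEX against WT ADX, 16 to 20 and 13 to 16 for WT ADX+ADR against WT ADX, 8 to 13 and 9 to 11 for WT ADX against WT sham, 1 to 3 and 1 to 4 for RE-RE ADX against RE-RE sham, 3 to 8 and 4 to 7 for RE-RE sham against WT sham, and 2 to 7 and 2 to 4 for the ADX effect in RE-RE minus that in WT. Differences of time effects gave 1 to 3 (WT ADX+DEX minus WT ADX+ADR), 5 to 10 (WT ADX+DEX minus WT sham) and 0 to 0 (WT ADX minus WT sham).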
